A study of Rattus norvegicus with 12 samples.

Results

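The 10 genes of a list that marks p53 activity and DNA damage were followed across 12 brain RNA-seq libraries. The list holds 7 p53 targets (Cdkn1a, Mdm2, Bax, Bbc3, Pmaip1, Ccng1 and Sesn1) and the 3 Gadd45 genes (Gadd45a, Gadd45b and Gadd45g). Members were found by gene symbol in the deposited table of raw counts, which has 31177 rows. Of the 10, 9 had a row and all 9 passed the filter on low counts, which kept 18850 rows, while Bbc3 was not analysed here. The groups were AD-HFD (the Alzheimer's disease model with a high-fat diet), AD (the same model without that diet) and Sham (the control), with 4 libraries each. The study asked how AD, alone or with metabolic stress, changes brain gene expression, and no group with the diet alone was analysed here. The labels name neither the strain, age and sex of the animals nor how the model was made, how long the diet lasted or which brain region was taken. They speak of mice, but the organism is entered as Rattus norvegicus and every Ensembl identifier is a rat one, so the genes are treated as rat genes. The labels do not say that each library came from a separate animal, so each p-value reflects only how these samples vary.

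The transcription factor p53 is held low by Mdm2, a ubiquitin ligase that marks it for breakdown and is itself a p53 target, which closes a feedback loop. When DNA damage or other stress releases p53, it turns on genes that stop the cell cycle (Cdkn1a), adjust p53 itself (Mdm2, Ccng1), limit growth signalling and oxidative stress (Sesn1) or start mitochondrial cell death (Bax, Pmaip1). The small Gadd45 proteins bind PCNA, the Cdk1-cyclin B complex and the kinase Map3k4, and have been linked to DNA repair and to active DNA demethylation. Gadd45a is a p53 target, Gadd45b also answers to NF-kB and TGF-beta, and Gadd45g also answers to cytokines, so none of these genes reads p53 alone. In the brain, the Gadd45 genes are also switched on by neuronal activity and injury.

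The 250 bases before the start sites of Cdkn1a and of the 3 Gadd45 genes are printed here, because these 4 members differed most between AD-HFD and Sham. The sequences are RefSeq's (build GRCr8), 5′ to 3′ on the gene's strand. Capitals mark matches on either strand to the p53 consensus decamer (the repeated unit of p53 response elements), to the CCAAT box spelled CCAAT, to the E-box spelled CACGTG, and to the TATA box spelled TATAA. The windows are chr20:7150682-7150931 (plus strand) for Cdkn1a, chr4:97486800-97487049 (minus) for Gadd45a, chr7:9430719-9430968 (minus) for Gadd45b and chr17:13530352-13530601 (minus) for Gadd45g.
Cdkn1a: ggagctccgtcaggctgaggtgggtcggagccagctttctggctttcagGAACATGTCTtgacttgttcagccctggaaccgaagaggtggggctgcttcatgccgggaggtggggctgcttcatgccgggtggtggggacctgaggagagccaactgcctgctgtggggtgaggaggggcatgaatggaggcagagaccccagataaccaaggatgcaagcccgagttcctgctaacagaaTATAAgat
Gadd45a: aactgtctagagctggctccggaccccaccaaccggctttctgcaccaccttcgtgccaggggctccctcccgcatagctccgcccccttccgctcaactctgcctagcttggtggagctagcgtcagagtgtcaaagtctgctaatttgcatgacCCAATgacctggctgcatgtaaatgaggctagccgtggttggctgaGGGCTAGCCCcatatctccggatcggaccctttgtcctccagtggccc
Gadd45b: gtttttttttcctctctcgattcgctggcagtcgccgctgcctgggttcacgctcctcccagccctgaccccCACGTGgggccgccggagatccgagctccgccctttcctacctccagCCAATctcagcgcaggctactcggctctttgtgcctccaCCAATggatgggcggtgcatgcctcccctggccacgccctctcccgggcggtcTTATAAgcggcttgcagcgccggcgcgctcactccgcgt
Gadd45g: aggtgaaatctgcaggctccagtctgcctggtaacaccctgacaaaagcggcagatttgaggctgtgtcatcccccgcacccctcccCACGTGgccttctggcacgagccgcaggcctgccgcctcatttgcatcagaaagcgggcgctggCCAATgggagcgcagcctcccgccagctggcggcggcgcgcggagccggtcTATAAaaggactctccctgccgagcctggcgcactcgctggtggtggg

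The p53 decamer lay at -201 to -192 from the RefSeq start site used for Cdkn1a and at -48 to -39 from that of Gadd45a. In the Cdkn1a window TATAA lay at -8 to -4, and these positions hold for the RefSeq start used only. No copy of the decamer was found in the windows of Gadd45b and Gadd45g. Those 2 windows share another layout, with the E-box CACGTG at -178 to -173 in Gadd45b and at -163 to -158 in Gadd45g, then CCAAT boxes, then the TATA box nearest to the start. The TATA box of Gadd45b overlaps its own reverse complement, so both strands match. Over windows of 300 bases (250 before and 50 after the start), 8 of the members had a RefSeq promoter. Of these 8, 4 held the decamer (Cdkn1a, Ccng1, Sesn1 and Gadd45a), against 7.98% of all 33469 promoters. The E-box was in 2 of the 8 and in 6.42% of all promoters, the CCAAT box in 6 and in 37.5%, and the TATA box in 3 and in 26.2%. The core of CREB and ATF sites, spelled TGACG, was in 6 of the 8 and in 21.2% of all promoters. The GC box, spelled GGGCGG, was in 6 and in 33.1%, and the AP-1 site, spelled TGANTCA, was in 0 of the 8 and in 7.33% of all. A match is a description of letters and not evidence of binding.

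Library totals ran from 26668974 to 35351792 counts. Levels are given in CPM (counts scaled to the TMM-adjusted library total), and differences are log2 fold changes ± SE from edgeR's quasi-likelihood test, with a call where the Benjamini-Hochberg adjusted p over all 18850 genes was under 0.05. Gene lengths were not used, so levels are compared between libraries and not between genes. The exception is the share of each Gadd45 gene in the family's summed counts, which is given as a description. The AD libraries differed in markers of a brain region: 8 thalamus markers together had 75.4 to 85.4 CPM in the AD-HFD libraries, 1833, 624, 117 and 1303 CPM in the AD libraries in replicate order, and 54.1 to 130 CPM in the Sham libraries. Hypothalamus markers had 46.8 to 165 CPM in AD-HFD, 16.7, 17.2, 117 and 1883 CPM in AD-1 to AD-4, and 2.37 to 5.92 CPM in Sham. Cortex markers had 549, 817, 2012 and 489 CPM in AD-HFD-1 to AD-HFD-4, and 286, 103, 1289 and 185 CPM in AD-1 to AD-4. In Sham they had 2386 to 2878 CPM. AD-HFD-3 thus differed from the other AD-HFD libraries, also in neuron markers (5362 against 1299 to 2498 CPM) and leukocyte markers (37.4 against 110 to 321 CPM). The make-up by region and the group therefore cannot be told apart in any of the 3 comparisons. AD-3 also stood apart in the members themselves. The AD-3 values lay within the AD-HFD range for 8 of the 9 members, and above that range for Gadd45b. For Ccng1 the AD-3 value was within the Sham range as well. The share of all genes with AD-3 inside the AD-HFD range was not measured, so this likeness is not shown to be particular to the members. Values without AD-3 are therefore given beside the members' results that it changes.

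In AD-HFD brains, 7 of the 9 members rose against Sham and Sesn1 fell, while Ccng1 did not pass the test. The rises ran from 1.04 ± 0.29 for Bax to 4.29 ± 0.81 for Gadd45g on the log2 scale, and the median over the 9 members was 2.72 (1.95 without AD-HFD-4), against 0.03 over all genes tested. This comparison moved much of the transcriptome: 19.7% of all genes were called higher and 12.9% called lower. All 8 called members had no overlap between the 4 AD-HFD and the 4 Sham libraries, 7 higher and 1 lower, and 18.9% of all genes were separate in this way on the higher side and 16.2% on the lower. In these bulk samples, more cells of a type and more RNA per cell cannot be told apart.

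In AD brains without the diet, 3 members rose against Sham: Cdkn1a, Gadd45a and Gadd45g. Of all genes, 3.07% were called higher and 3.16% lower in this comparison. The same 3 members had every AD library above every Sham library, which held for 10.3% of all genes, and Sesn1 had every AD library below every Sham library, which held for 11.3%. The median over the members was 1.58, against 0.06 over all genes, and without AD-3 it was 0.79, against 0.03. Between AD-HFD and AD, 0 of the 9 members passed the test, 5 had an unadjusted p under 0.05, as did 30.5% of all genes, DESeq2 called 3, as it did 17.6% of all genes, and limma voom called 0. There, 0.0106% of all genes were called higher and 0% lower. No member was separate between these groups, against 2.72% of all genes on the higher side and 2.74% on the lower. The median over the members was 0.92, against 0.04 over all genes, and without AD-3 it was 1.37, against 0.09. The comparisons share groups (Sham, AD-HFD or AD), so their values are not independent of each other.

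**Figure D1:**
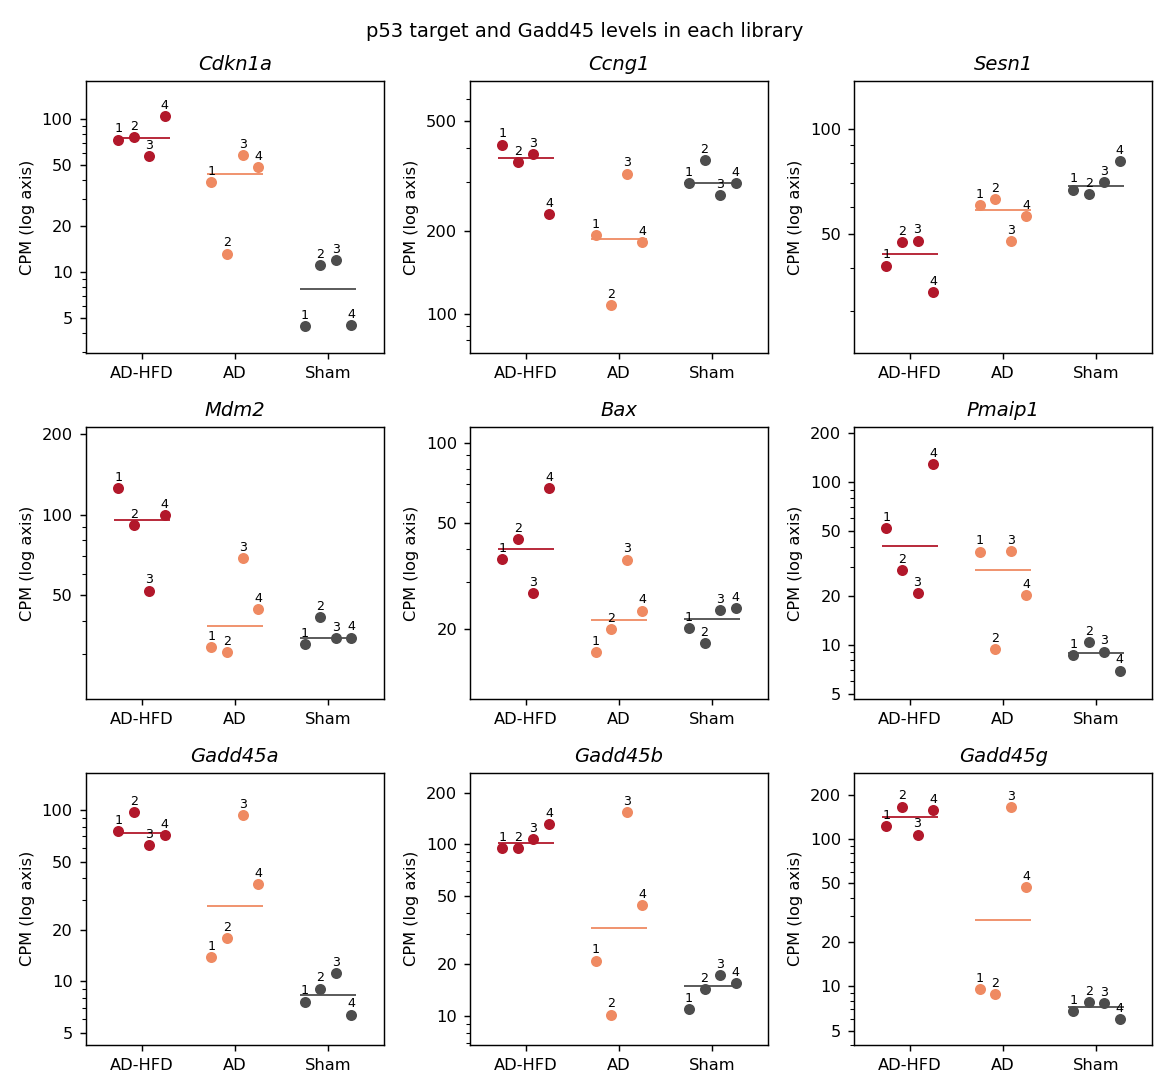
Level of each of the 9 genes in CPM (log axis) in the 4 AD-HFD, 4 AD and 4 Sham libraries. Points are libraries with their replicate number and lines are group medians. AD-3 sits at AD-HFD levels in most panels, for example 164 CPM for Gadd45g against 107 to 166 in AD-HFD.

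**Figure D2:**
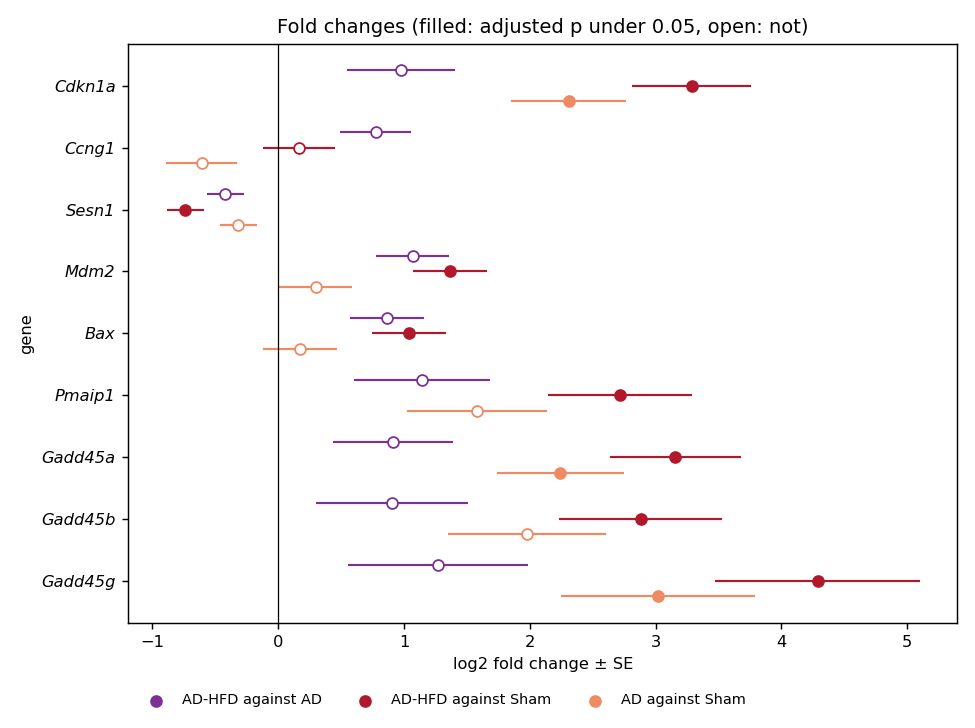
Log2 fold changes ± SE of the 9 genes in the 3 comparisons, from edgeR. Filled points passed an adjusted p of 0.05: 8 where AD-HFD was set against Sham, 0 where it was set against AD, and 3 where AD was set against Sham.

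Cdkn1a encodes p21, the inhibitor that binds cyclin-dependent kinases and holds cells before DNA replication. Its level was 73.2, 76.3, 56.8 and 104 CPM in AD-HFD-1 to AD-HFD-4, 38.5, 13.2, 57.9 and 48.3 CPM in AD-1 to AD-4, and 4.41, 11.1, 11.9 and 4.49 CPM in Sham-1 to Sham-4. All AD-HFD libraries and all AD libraries were above all Sham libraries, with AD-2 only slightly above the highest Sham library, and AD-3 just inside the AD-HFD range. Group means were 77.6 ± 19.6 CPM in AD-HFD, 39.5 ± 19.3 CPM in AD and 7.97 ± 4.08 CPM in Sham (SD, n = 4 each). Cdkn1a rose in AD-HFD against Sham by 3.29 ± 0.47 (log2, adjusted p = 0.00195) and in AD against Sham by 2.31 ± 0.46 (adjusted p = 0.0161). The AD call did not rest on AD-3, since the difference was 2.06 without it (adjusted p = 0.0159), but it was lost without Sham-1 (adjusted p = 0.0520) or without Sham-4 (adjusted p = 0.0571). Between AD-HFD and AD the difference was 0.98 ± 0.43 and did not pass (adjusted p = 0.151).

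Ccng1 encodes cyclin G1, a p53 target that acts back on the p53-Mdm2 loop through a phosphatase. Its level was 411, 356, 380 and 230 CPM in the AD-HFD libraries, 193, 108, 322 and 182 CPM in the AD libraries, and 298, 361, 269 and 298 CPM in the Sham libraries. AD-1, AD-2 and AD-4 were the 3 lowest libraries of all 12, while AD-3 lay inside the Sham range. No comparison passed the test with all libraries: the log2 differences were 0.17 ± 0.28 in AD-HFD against Sham (adjusted p = 0.673), 0.77 ± 0.28 in AD-HFD against AD (adjusted p = 0.101) and -0.61 ± 0.28 in AD against Sham (adjusted p = 0.215). Without AD-3, Ccng1 was called lower in AD against Sham, with a difference of -0.93 (adjusted p = 0.0299), and higher in AD-HFD against AD, with 1.10 (adjusted p = 0.00895). With AD-3 as the only AD library, the AD against Sham value was 0.064, so its direction depends on which AD libraries are used.

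Mdm2, the ligase that keeps p53 low, had 125, 91.4, 51.9 and 99.8 CPM in the AD-HFD libraries, 31.8, 30.5, 68.8 and 44.3 CPM in the AD libraries, and 32.7, 41.2, 34.4 and 34.6 CPM in the Sham libraries. The AD-HFD libraries were all above Sham, and AD-3 was above AD-HFD-3 but below the other AD-HFD libraries. Mdm2 rose in AD-HFD against Sham by 1.37 ± 0.29 (log2, adjusted p = 0.00677). The difference was 0.30 ± 0.29 in AD against Sham (adjusted p = 0.570), and -0.008 without AD-3. Against AD, the AD-HFD difference was 1.07 ± 0.29 (adjusted p = 0.0619), and it passed without AD-3 (1.37, adjusted p = 0.00487) and without AD-HFD-3 (1.26, adjusted p = 0.00800).

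Bax encodes the protein that opens pores in the outer mitochondrial membrane during apoptosis. It had 36.7, 43.5, 27.3 and 67.8 CPM in the AD-HFD libraries, 16.4, 19.9, 36.5 and 23.5 CPM in the AD libraries, and 20.2, 17.7, 23.5 and 24.0 CPM in the Sham libraries. The lowest AD-HFD library was close to the highest Sham library, and 3 of the 4 AD libraries lay at Sham levels. Bax rose in AD-HFD against Sham by 1.04 ± 0.29 (log2, adjusted p = 0.0208), a call lost without AD-HFD-4 (0.75, adjusted p = 0.0643), without Sham-1 (adjusted p = 0.0540) or without Sham-2 (adjusted p = 0.0615). Its difference was 0.17 ± 0.29 in AD against Sham (adjusted p = 0.759), and -0.10 without AD-3. For AD-HFD against AD the value was 0.86 ± 0.29 (adjusted p = 0.0859), and it passed without AD-3 (1.14, adjusted p = 0.0128) and without AD-HFD-3 (1.03, adjusted p = 0.0211).

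Pmaip1 encodes Noxa, a BH3-only protein that neutralises the survival factor Mcl1. It had 52.0, 28.7, 20.9 and 129 CPM in the AD-HFD libraries, 37.3, 9.42, 37.5 and 20.2 CPM in the AD libraries, and 8.62, 10.4, 9.05 and 6.93 CPM in the Sham libraries. AD-HFD-4 was the highest and AD-2 was at Sham level, and the AD-HFD values spread 6.19-fold. Pmaip1 rose in AD-HFD against Sham by 2.72 ± 0.57 (log2, adjusted p = 0.00632), and by 1.95 without AD-HFD-4 (adjusted p = 0.0136). The difference in AD against Sham was 1.58 ± 0.55 (adjusted p = 0.109), which passed without AD-HFD-4 in the shared fit (1.58, adjusted p = 0.0395). AD-HFD differed from AD by 1.14 ± 0.54 (adjusted p = 0.174), and by 0.37 without AD-HFD-4 (adjusted p = 0.630).

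Sesn1 encodes sestrin 1, which restrains mTORC1 signalling and is a target of FOXO factors as well as of p53. It was the member that fell, with 40.6, 47.3, 47.9 and 34.1 CPM in the AD-HFD libraries, 60.6, 63.0, 47.8 and 56.3 CPM in the AD libraries, and 67.1, 65.2, 70.4 and 80.9 CPM in the Sham libraries. All AD libraries lay below all Sham libraries, and AD-3 was the lowest of the AD libraries, inside the AD-HFD range. Sesn1 fell in AD-HFD against Sham by 0.74 ± 0.15 on the log2 scale (adjusted p = 0.00516). Against AD, the AD-HFD difference of -0.42 ± 0.15 did not pass (adjusted p = 0.0912), but did without AD-3 (-0.50, adjusted p = 0.0244) and without AD-HFD-3 (-0.48, adjusted p = 0.0377). The AD difference from Sham was -0.32 ± 0.15 (adjusted p = 0.212).

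Of the Gadd45 genes, Gadd45g had the widest difference of all members in each comparison, and Cdkn1a stood above Gadd45a and Gadd45b against Sham. Gadd45a had 75.3, 97.0, 62.1 and 71.2 CPM in the AD-HFD libraries, 13.9, 18.0, 93.4 and 36.8 CPM in the AD libraries, and 7.63, 9.07, 11.2 and 6.40 CPM in the Sham libraries. Every AD-HFD and AD library was above every Sham library. Gadd45a rose by 3.16 ± 0.52 in AD-HFD against Sham (log2, adjusted p = 0.00306) and by 2.24 ± 0.50 in AD against Sham (adjusted p = 0.0256). Without AD-3 the AD against Sham value was 1.41 and was still called (adjusted p = 0.0155), but the call was lost without AD-4 (adjusted p = 0.0547) or without any 1 of the Sham libraries (adjusted p from 0.0566 to 0.0858). AD-HFD differed from AD by 0.92 ± 0.48 (adjusted p = 0.213).

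Gadd45b had 94.8, 95.0, 108 and 132 CPM in the AD-HFD libraries, 21.1, 10.2, 154 and 44.3 CPM in the AD libraries, and 11.0, 14.3, 17.4 and 15.5 CPM in the Sham libraries. AD-3 was the highest of all 12 libraries and AD-2 the lowest, so the AD values spread 15.1-fold, against 1.39-fold in AD-HFD and 1.57-fold in Sham. Gadd45b rose by 2.88 ± 0.65 in AD-HFD against Sham (log2, adjusted p = 0.00825). The AD against Sham difference of 1.98 ± 0.63 did not pass (adjusted p = 0.0819), was called without AD-2 (2.34, adjusted p = 0.0301), and was 0.79 without AD-3. AD-HFD differed from AD by 0.90 ± 0.60 (adjusted p = 0.328).

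Gadd45g had 123, 166, 107 and 157 CPM in the AD-HFD libraries, 9.53, 8.81, 164 and 47.1 CPM in the AD libraries, and 6.81, 7.83, 7.69 and 5.99 CPM in the Sham libraries. AD-1 and AD-2 were just above the highest Sham library, whereas AD-3 was within the AD-HFD range and 18.6 times the lowest AD library. Means were 138 ± 27.9 CPM in AD-HFD, 57.3 ± 73.1 CPM in AD and 7.08 ± 0.854 CPM in Sham (SD, n = 4 each), and the SD in AD exceeded its mean. Gadd45g rose by 4.29 ± 0.81 in AD-HFD against Sham (log2, adjusted p = 0.00433) and by 3.02 ± 0.77 in AD against Sham (adjusted p = 0.0407). The second call was lost without AD-3 (1.62, adjusted p = 0.0567), without either of AD-HFD-1 and AD-HFD-2, without AD-4, and without any 1 of the Sham libraries, with adjusted p between 0.0543 and 0.118 over these fits. AD-HFD differed from AD by 1.27 ± 0.71 (adjusted p = 0.244).

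The AD-HFD against AD values of the Gadd45 genes turned on AD-3. Without it, all 3 were called higher in AD-HFD: Gadd45a by 1.74 ± 0.32 (adjusted p = 0.00452), Gadd45b by 2.09 ± 0.40 (adjusted p = 0.00478) and Gadd45g by 2.67 ± 0.53 (adjusted p = 0.00561). With AD-3 as the only AD library their differences were -0.30, -0.52 and -0.25, in the opposite direction and not called. Without AD-3, 7 of the 9 members passed (the 3 Gadd45 genes, Mdm2, Bax and Ccng1 higher and Sesn1 lower), and 5841 of all genes (30.3%), against 2 with all libraries. Without AD-HFD-3, 3 members passed (Mdm2 and Bax higher, Sesn1 lower) and 5321 genes (27.6%). Cdkn1a and Pmaip1 passed in neither fit. Because AD-3 was picked out partly by its levels of these same genes, the calls without it are descriptions and not independent support. The AD libraries then left had 1833, 624 and 1303 CPM of thalamus markers, against 75.4 to 85.4 CPM in AD-HFD. Region and diet therefore cannot be told apart in that fit.

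**Figure D3:**
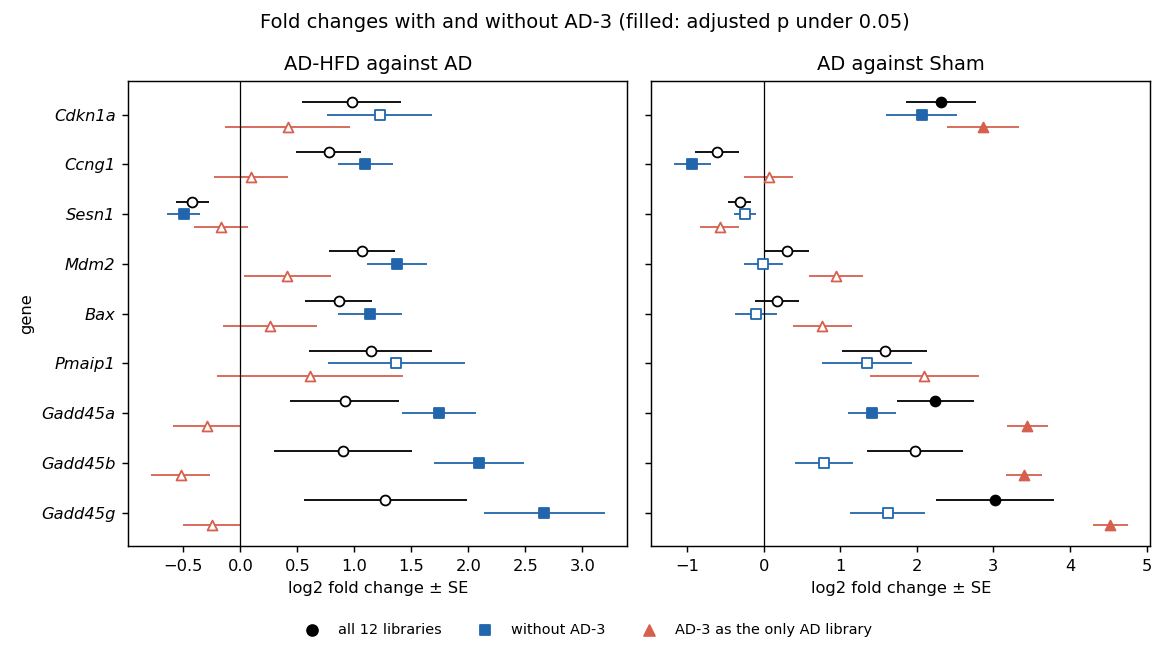
Log2 fold changes ± SE of the 9 genes in AD-HFD against AD (left) and AD against Sham (right), with all 12 libraries, without AD-3, and with AD-3 as the only AD library. Filled symbols passed an adjusted p of 0.05. The Gadd45 genes move most, for example Gadd45g at 1.27, 2.67 and -0.25 in AD-HFD against AD.

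Within the Gadd45 family, Gadd45g took a larger share of the summed counts where the family was high. The 3 genes together had 8850 to 11231 counts in the AD-HFD libraries, 1283, 1268, 13350 and 3532 counts in AD-1 to AD-4, and 833 to 1065 counts in the Sham libraries. Gadd45g made up 38.7% to 46.4% of them in AD-HFD, 21.4%, 23.8%, 39.8% and 36.8% in AD-1 to AD-4, and 21.2% to 26.7% in Sham. The AD-HFD and Sham ranges did not overlap, and AD-3 lay in the AD-HFD range. In AD-2, Gadd45a was the largest part, with 48.6%. These shares are of counts not divided by gene length, and they describe the make-up without a test.

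Some markers of other cells moved with these genes, and their part in the members' differences was not tested. Of all genes, 19.7% were called higher and 12.9% lower in AD-HFD against Sham. The shares were 3.07% and 3.16% in AD against Sham, and 0.0106% and 0% in AD-HFD against AD. The reactive astrocyte list (8 of 9 markers, Serpina3n not analysed here) summed to 3511 to 6871 CPM in AD-HFD, 604, 679, 4569 and 1605 CPM in AD-1 to AD-4, and 283 to 624 CPM in Sham, an order close to that of the Gadd45 genes. Of these 8 markers, 8 were called higher in AD-HFD against Sham, 0 in AD-HFD against AD and 5 in AD against Sham. Leukocyte markers (8 summed) had 37.4 to 321 CPM in AD-HFD, 34.9 to 65.8 CPM in AD and 6.67 to 10.8 CPM in Sham. Of the 7 leukocyte markers tested, 6 were called higher in AD-HFD and 4 in AD against Sham. Of 10 microglia markers, 7 were called higher and 1 lower in AD-HFD against Sham, and 4 higher in AD against Sham, with sums of 373 to 728 CPM in AD-HFD, 271 to 416 CPM in AD and 193 to 205 CPM in Sham.

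Red blood cell markers (5 tested) were all called higher in AD-HFD against Sham, at 254 to 4207 CPM in AD-HFD and 159 to 361 CPM in Sham. Of 4 endothelial markers tested, 3 were called higher. The endothelial sums, over 5 markers, were 155 to 1131 CPM in AD-HFD and 126 to 176 CPM in Sham. AD-HFD-4, the library with the highest Pmaip1, Bax and Cdkn1a, was the highest in the leukocyte, red blood cell and endothelial sums. Neuron markers were called lower in AD-HFD against Sham for 4 of 6, at 1299 to 5362 CPM in AD-HFD and 6450 to 8373 CPM in Sham. In AD against Sham, 6 of 8 thalamus and 4 of 8 hypothalamus markers were called higher and 3 of 9 cortex markers lower. In AD-HFD against Sham, 2 of 8 hypothalamus markers, 3 of 5 oligodendrocyte precursor markers, 4 of 6 leptomeninges markers, 2 of 6 proliferation markers and 1 of 6 oligodendrocyte markers were called higher. There, 2 of 9 cortex and 1 of 6 astrocyte markers were called lower, and 0 of 6 choroid plexus markers passed in either direction. With 19.7% of all genes called higher and 12.9% lower there, the hypothalamus, oligodendrocyte, cortex and astrocyte counts were near the background. Choroid plexus sums were uneven within groups: 10270, 516, 4.88 and 12.6 CPM in AD-HFD-1 to AD-HFD-4, and 1.49, 4548, 4479 and 6.06 CPM in Sham-1 to Sham-4. In AD they were 6.9 to 7.8 CPM. Cdkn1a was also higher in Sham-2 and Sham-3 (11.1 and 11.9 CPM) than in Sham-1 and Sham-4 (4.41 and 4.49 CPM), and any link was not tested. No measured marker was at 0 in all libraries.

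**Figure D4:**
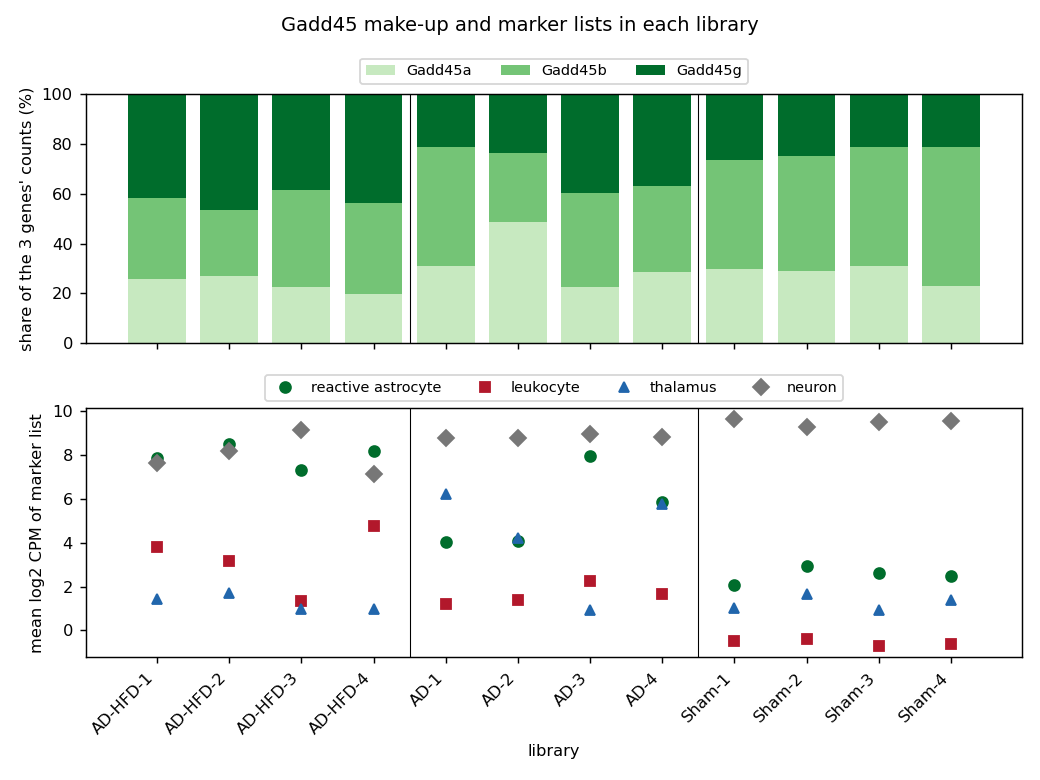
Share of each Gadd45 gene in the counts of the 3 together (top, percent) and mean log2 CPM of the reactive astrocyte, leukocyte, thalamus and neuron marker lists (bottom) in each library, ordered AD-HFD, AD, Sham. AD-3 has a Gadd45g share of 39.8% and a reactive astrocyte level within the AD-HFD range, with low thalamus markers.

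Of 8 tested p53 regulators, 0 were called in AD-HFD against Sham, where 19.7% of all genes were called higher and 12.9% lower. The regulators' median difference was 0.08 on the log2 scale, against 0.03 over all genes. The smallest adjusted p values were those of the inhibitor Mdm4 (0.47 ± 0.18, adjusted p = 0.0625), the ubiquitin ligase Rchy1 (0.24 ± 0.13, adjusted p = 0.166) and the acetyltransferase Kat5 (-0.18 ± 0.11, adjusted p = 0.232). The phosphatase Ppm1d, itself a p53 target, differed by -0.02 ± 0.17 (adjusted p = 0.935).

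Among 23 other p53 targets, 9 rose and 2 fell in AD-HFD against Sham, that is 39.1% and 8.70% of the list, against 19.7% and 12.9% of all genes. The list's median was 0.63, against 0.03 over all genes. The largest rise was that of Btg2, an antiproliferative factor that also answers to neuronal activity and growth signals. Btg2 had 146, 184, 45.7 and 322 CPM in the AD-HFD libraries, 9.80, 8.17, 41.7 and 37.6 CPM in the AD libraries, and 12.0, 12.2, 9.49 and 16.2 CPM in the Sham libraries, so every AD-HFD library exceeded every AD and Sham library. It rose by 3.80 ± 0.65 in AD-HFD against Sham (adjusted p = 0.00327), and the AD-HFD against AD difference of 2.84 ± 0.62 did not pass (adjusted p = 0.0605).

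Sesn2, the stress-induced relative of Sesn1, went the other way from it. Sesn2 had 59.3, 67.9, 49.8 and 60.2 CPM in the AD-HFD libraries, 23.7, 26.8, 78.4 and 36.8 CPM in the AD libraries, and 13.9, 17.0, 12.8 and 15.5 CPM in the Sham libraries. Every AD-HFD and AD library was above every Sham library, and AD-3 was the highest of the 12. It rose by 2.002 ± 0.327 in AD-HFD against Sham (adjusted p = 0.00297) and by 1.48 ± 0.32 in AD against Sham (adjusted p = 0.0227), and the AD call was lost without any 1 of the Sham libraries (adjusted p up to 0.0687). Phlda3, a repressor of Akt, was the other list member called in AD. It had 59.5, 78.3, 26.7 and 67.2 CPM in the AD-HFD libraries, 65.0, 102, 42.7 and 64.7 CPM in the AD libraries, and 17.0, 17.2, 22.1 and 16.5 CPM in the Sham libraries. Phlda3 rose by 1.67 ± 0.32 in AD-HFD against Sham (adjusted p = 0.00467) and by 1.92 ± 0.32 in AD against Sham (adjusted p = 0.00802), and AD-3 was its lowest AD library, unlike for the Gadd45 genes.

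The other rises in that list were those of the nuclease Aen (1.97 ± 0.35), the kinase Plk3 (1.87 ± 0.35), the death receptor Fas (2.62 ± 0.56), Tp53inp1 (1.24 ± 0.30), the apoptosome scaffold Apaf1 (0.65 ± 0.18) and the phosphatase Dusp5 (2.30 ± 0.80). Tigar, a regulator of glycolysis, fell by 0.70 ± 0.15, and the ubiquitin ligase Trim32 fell by 0.94 ± 0.23. Over the 11 called genes the adjusted p ran from 0.00297 to 0.0451. Of them, 9 were called whichever 1 library was left out, and Apaf1 and Dusp5 were not. Against Sham, the AD group had 2 calls in the list, and AD-HFD against AD had 0, where Apaf1 (0.88 ± 0.18, adjusted p = 0.0605) came closest, followed by Btg2 and Plk3 (adjusted p = 0.0614). Without AD-3, 12 of the 23 passed, against 30.3% of all genes.

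In the BCL2 family and caspase list, 7 of 16 tested genes rose and 2 fell in AD-HFD against Sham. These were 43.8% and 12.5% of the list, against 19.7% and 12.9% of all genes, with a list median of 0.42. The pro-apoptotic genes among the rises were Bak1, the partner of Bax in pore formation, by 1.90 ± 0.32 (adjusted p = 0.00315), Bid by 1.33 ± 0.29, Bmf by 1.24 ± 0.37 and Diablo by 0.77 ± 0.17. The initiator Casp8 rose by 2.75 ± 0.67, and the effector Casp6 by 1.23 ± 0.42. The survival gene Bcl2a1, abundant in leukocytes, had the largest difference, 4.06 ± 0.80, with means of 12.7 CPM in AD-HFD and 0.757 CPM in Sham. Casp9, the initiator that Apaf1 activates, fell by 0.90 ± 0.18 (adjusted p = 0.00547), and the survival gene Bcl2l2 fell by 0.46 ± 0.16 (adjusted p = 0.0389). So the called genes of this list include both death and survival genes, in both directions. Of the 9, 6 were called whichever library was left out, the exceptions being Bmf, Casp6 and Bcl2l2.

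Casp9 was also the 1 gene of that list called in AD against Sham, by -0.78 ± 0.18 (adjusted p = 0.0295), a call lost when any AD library but AD-3, or any Sham library but Sham-2, was left out. Its levels were 25.8, 29.9, 45.8 and 28.2 CPM in AD-HFD, 34.0, 32.0, 40.9 and 34.0 CPM in AD, and 67.1, 52.7, 58.9 and 63.8 CPM in Sham. Both AD-HFD and AD libraries lay below all Sham libraries. In AD-HFD against AD, Casp8 came closest in this list, at 1.92 ± 0.63 (adjusted p = 0.0810), followed by Bcl2l11 (adjusted p = 0.0838) and Bcl2a1 (adjusted p = 0.0897). Without AD-3, 5 of the 16 passed in that comparison, against 30.3% of all genes, a count near that share.

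Of 11 tested CDK inhibitors and G1 cyclins, 5 rose and 1 fell in AD-HFD against Sham. These were 45.5% and 9.09% of the list, against 19.7% and 12.9% of all genes. The rises were those of genes that drive or gate the G1 to S step: Cdk2 by 1.75 ± 0.33, Ccnd1 by 1.43 ± 0.28, Cdk4 by 1.19 ± 0.26, Cdk6 by 2.09 ± 0.74, and Rb1, the retinoblastoma protein that holds the step, by 0.72 ± 0.16 (log2, adjusted p from 0.00446 to 0.0483). Ccnd1, which encodes cyclin D1, had means of 74.3 CPM in AD-HFD and 27.5 CPM in Sham. Ccne1, for cyclin E1, fell by 0.80 ± 0.28 (adjusted p = 0.0482). The calls of Cdk6 and Ccne1 were lost in 9 of 12 fits that leave out 1 library. The CDK inhibitors other than Cdkn1a that were tested did not pass: Cdkn1b differed by 0.17 ± 0.26 (adjusted p = 0.643), Cdkn1c by 0.10 ± 0.61 (adjusted p = 0.917), Cdkn2b by -0.51 ± 0.48 (adjusted p = 0.435) and Cdkn2c by 0.53 ± 0.41 (adjusted p = 0.325).

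Among 11 genes listed as Gadd45 partners, a loose list in which not every gene encodes a protein that binds Gadd45, 3 rose and 1 fell in AD-HFD against Sham. These were 27.3% and 9.09% of the list, against 19.7% and 12.9% of all genes, so the counts were near the background. Pcna, the sliding clamp of DNA replication, had 120, 99.7, 84.4 and 126 CPM in AD-HFD, 43.1, 40.7, 139 and 54.8 CPM in AD, and 34.6, 46.2, 47.6 and 42.6 CPM in Sham, and rose by 1.33 ± 0.35 (adjusted p = 0.0149). The p38 kinase activators split: Map2k3 rose by 2.45 ± 0.61 (adjusted p = 0.0129) and Map2k6 fell by 1.64 ± 0.46 (adjusted p = 0.0199). Map2k3 had 19.1 to 54.8 CPM in AD-HFD, 4.57, 5.11, 35.8 and 9.94 CPM in AD and 5.03 to 6.73 CPM in Sham, while Map2k6 had 3.66 to 10.5 CPM in AD-HFD, 24.8, 15.4, 3.69 and 14.8 CPM in AD and 17.9 to 25.2 CPM in Sham. AD-3 was thus the highest AD library for Pcna and Map2k3 and the lowest for Map2k6. Cdk1 rose by 1.90 ± 0.61 at low levels (adjusted p = 0.0340), a call lost in 6 of 12 fits that leave out 1 library, while that of Map2k6 was lost without AD-HFD-2, AD-HFD-4 or Sham-1. Map3k4, the kinase that Gadd45 proteins bind, differed by 0.14 ± 0.23 (adjusted p = 0.645), and Tdg, the glycosylase of active demethylation, by 0.62 ± 0.25 (adjusted p = 0.0711).

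Of 20 DNA damage sensing and repair genes tested, 3 rose and 0 fell in AD-HFD against Sham, 15% and 0% of the list, against 19.7% and 12.9% of all genes, a count of rises near the background. The list's median was 0.09. The 3 were the checkpoint kinase Chek2 (1.44 ± 0.34), Nbn of the break-sensing MRN complex (0.60 ± 0.17) and the kinase Atr (0.86 ± 0.28). Only the call of Chek2 held whichever library was left out. Chek2 levels were low, with means of 2.14 CPM in AD-HFD and 0.786 CPM in Sham, and the libraries of these groups overlapped. Atm, the kinase that answers to double-strand breaks, differed by -0.33 ± 0.20 (adjusted p = 0.216), and Parp1 by 0.12 ± 0.13 (adjusted p = 0.500). In both comparisons with the AD group, 0 of the 20 passed, and the same 0 holds there for the regulator, cell cycle and Gadd45 partner lists. The smallest adjusted p values in those lists in AD against Sham were those of Chek2 (0.0671), Ccnd1 (0.0807), Ppm1d (0.0918) and Mapk8 (0.162), and in AD-HFD against AD those of Ccnd2 (0.0641), Cdk1 (0.0819), Ppm1d (0.0886) and Nbn (0.109). Without AD-3, 2 of 8 regulators, 4 of 11 cell cycle genes, 6 of 11 Gadd45 partners and 4 of 20 damage genes passed in AD-HFD against AD, against 30.3% of all genes, so the regulator, cell cycle and damage counts were near or below that share.

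**Figure D5:**
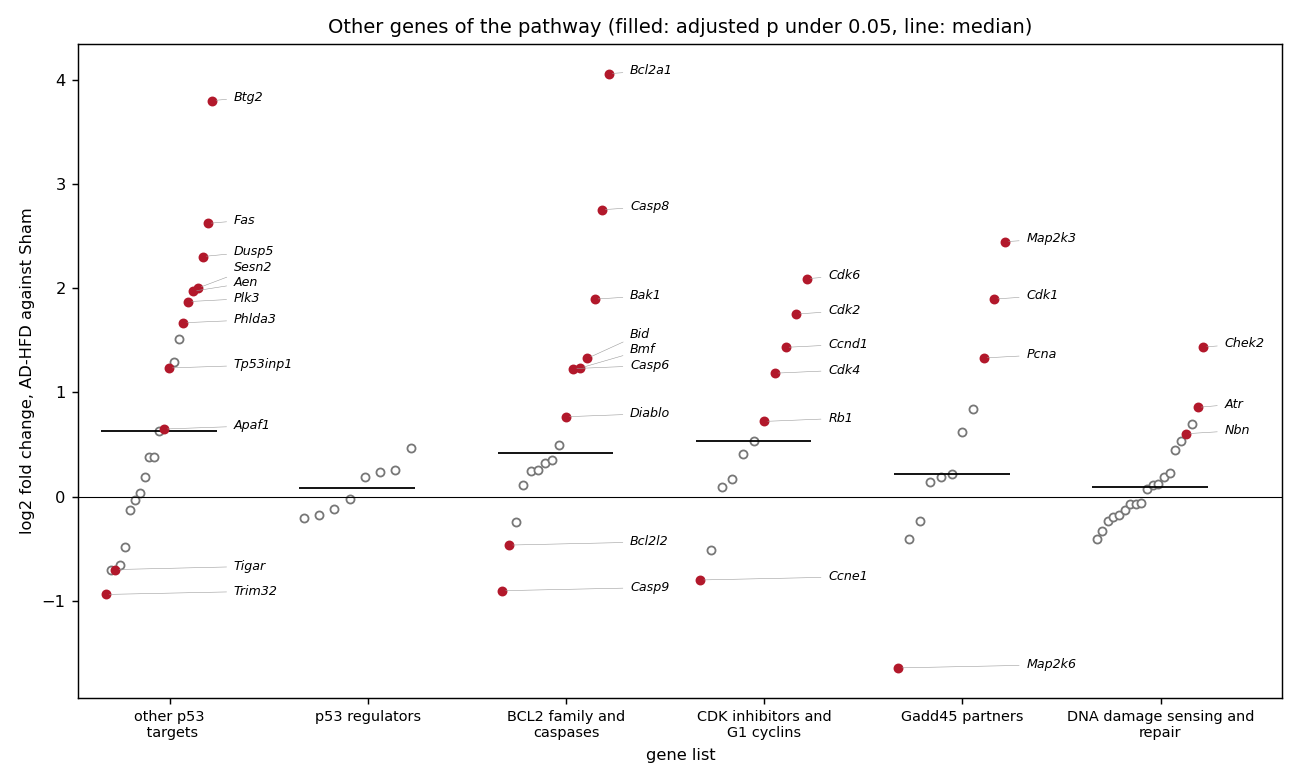
Log2 fold changes in AD-HFD against Sham of the genes of the 6 pathway lists, sorted by value within each list. Filled and named points passed an adjusted p of 0.05 and lines are list medians, 0.63 for other p53 targets, 0.42 for the BCL2 family and caspases, and 0.09 for DNA damage sensing and repair.

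The genes whose levels ran most like the members' over the 12 libraries were searched among 13159 named genes with a mean of at least 1 CPM, by Pearson's r of log2 CPM. These values are descriptions, since the libraries share group differences and cell make-up. Cdkn1a ran with the phagocyte receptors Gpr84 (r = 0.969) and C3ar1 (0.965) and with Tnfrsf12a (0.963). Gadd45a ran with the heat shock gene Hspb1 (0.992), the haem oxygenase Hmox1 (0.990) and Rrad (0.989). Gadd45b ran with the proteoglycan Sdc1 (0.990), the growth factor Hbegf (0.988) and the metallothionein Mt1 (0.988). Gadd45g ran with the transcription factors Myc (0.991) and Stat3 (0.988) and with Pate4 (0.988).

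The other called members had different closest genes. Mdm2 ran with Osgin2 (r = 0.977), Eif2s1 (0.976) and Sla (0.976). Bax ran with the ribosomal protein gene Rps18 (0.989), the splicing gene Snrpb (0.986) and Ifrd2 (0.985). Pmaip1 ran with Ralb (0.986), St3gal1 (0.974) and the iron exporter Slc40a1 (0.962). Sesn1, the member that fell, ran with Mkrn1 (0.982), Tcte1 (0.977) and Zdhhc1 (0.975). No 2 members shared a gene among their 3 closest. With only 3 genes kept per member, this does not show that the members ran differently.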

How the data were processed

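RNA from 12 brain samples was sequenced, 4 each in AD-HFD, AD and Sham, grouped by title. The labels' protocols state TRIzol extraction of total RNA and a dual-mode mRNA library kit from Yeasen. FastQC and Trimmomatic are named in the submitters' processing notes. The aligner, counting program, strand setting, genome build and annotation are not given in the sources used here. Raw counts per gene were deposited by the authors in a single table with symbols. It has 31177 rows, of which 9127 are unnamed new loci (2.24% to 3.29% of the counts of a library), kept in library sizes and tests, and 117 repeat a symbol. Without a known strand setting, reads of overlapping genes cannot be told apart. Totals of 26668974 to 35351792 counts limit precision little for the members, and no molecular identifiers are described.

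These counts went into edgeR 4.0.16 under R 4.3.3: filterByExpr, TMM scaling and a quasi-likelihood fit (non-legacy) with 1 mean per group over all 12 libraries, with calls where the Benjamini-Hochberg adjusted p was under 0.05. The SE is the log2 fold change divided by the square root of F. Log2 CPM used a prior count of 2. The common dispersion had a square root of 0.415. No pair of libraries agreed within sampling noise (lowest chi-square per degree of freedom 17.4 over 66 pairs). The fit was tested on simulated counts. Alternatives were DESeq2 1.42.0, limma voom (limma 3.58.1), other scalings and filters, a stricter threshold, the replicate number as a block, the 2 compared groups alone, each library left out, AD-3 as the only AD library, and AD-HFD-3 and AD-HFD-4 left out. Their use on the pathway lists and on the members' median was chosen after seeing the data.

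The members, the pathway and marker lists and the tests were chosen with earlier results of these data known. Named were all members, the called genes of each pathway list, up to 3 with the smallest p where a list had none called, and, for Cdkn1a and each called member, the 3 named genes with the highest r. Map3k4, Atm, Parp1, Bcl2l11, the CDK inhibitors other than Cdkn1a, and list genes with values outside that rule were picked after their values were seen. Some genes of the pathway lists are not reported here and are left out of the list counts. Promoters came from RefSeq (GRCr8).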

Additional observations from a re-analysis of the deposited data

How the results depend on the processing

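In AD-HFD against Sham, the members' count of 8 was 7 at an adjusted p under 0.01, 7 to 8 with 1 library left out, and 8 in the other settings. All genes called numbered 6162, against 2174 at an adjusted p under 0.01 and 3514 to 8615 with 1 library left out. In AD against Sham, the 3 members called became 5 with DESeq2, 1 with limma voom, 0 at an adjusted p under 0.01 and 0 to 4 with 1 library left out (0 without Sham-1 or Sham-4, 1 without AD-4, Sham-2 or Sham-3). All genes called numbered 1174, against 2602 with DESeq2, 198 at an adjusted p under 0.01, 2363 with the 2 groups alone, 2801 with AD-HFD-1 and AD-HFD-2 as the only AD-HFD libraries, and 302 to 2329 with 1 library left out (302 without Sham-1, 2329 without AD-3). In AD-HFD against AD, the 0 members called became 3 with DESeq2 (Mdm2 and Bax higher, Sesn1 lower), 1 with AD-HFD-1 and AD-HFD-2 as the only AD-HFD libraries (Mdm2), and 0 to 7 with 1 library left out (7 without AD-3, 3 without AD-HFD-3). The 2 genes called of all genes became 3311 with DESeq2, 1896 with AD-HFD-1 and AD-HFD-2 alone, 5 with the replicate block, and 0 at an adjusted p under 0.01, with the 2 groups alone or with AD-3 as the only AD library. With 1 library left out they ran from 0 to 5841 (5841 without AD-3, 5321 without AD-HFD-3). The cause of these changes was not tested, apart from the stricter threshold itself.

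Directions turned for few values. In AD against Sham, without AD-3, Mdm2 stood at -0.008 and Bax at -0.10 (ranges with 1 library left out -0.008 to 0.457 and -0.101 to 0.343), and with AD-3 as the only AD library Ccng1 stood at 0.064, Ccnd2 at 0.17 and Mdc1 at 0.15. In AD-HFD against AD, with AD-3 as the only AD library, Gadd45a stood at -0.30, Gadd45b at -0.52, Gadd45g at -0.25, Tdg at -0.17 and Map2k6 at 0.97. That setting assumes that the lone library varies like the other groups. Scaling by library totals alone moved the all-gene median in AD-HFD against Sham to 0.10, against 0.03.

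No pairing by replicate number was seen. Over 12 pairs of same-numbered libraries the correlation of deviations from the group means ran from -0.32 to 0.10. Of 12 libraries, 1 correlated best with its own number. Differences in regional make-up between libraries also enter these deviations, so the check cannot exclude a pairing. With the replicate number as a block, 2 members were called in AD against Sham (Gadd45g at 2.37 was not), 0 in AD-HFD against AD and 8 in AD-HFD against Sham, and genes called numbered 851, 5 and 5156.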
